A study of Homo sapiens with 4 samples.

Results

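The glutathione transferases described here were GSTP1 (pi), GSTM1, GSTM2, GSTM3 and GSTM4 (mu), GSTT1 and GSTT2 (theta), and MGST1, MGST2 and MGST3 (microsomal). They were taken as all non-control probes that carry 1 of these names, which gave 16 probes for the 10 genes, out of 40974 probes tested under 30484 gene names.

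Glutathione transferases join the tripeptide glutathione to reactive and foreign molecules, so that these become soluble and can be pumped out of the cell. The cytosolic enzymes are dimers sorted into classes by sequence, among them pi, mu and theta, while the microsomal enzymes belong to a separate family of small membrane proteins. In leukemia cells they are studied because several anticancer drugs, or the reactive products they leave behind, are substrates of the pathway. The mu genes lie next to each other on the short arm of chromosome 1 and are so alike that a probe for 1 of them can bind the RNA of another, and the theta genes lie together on chromosome 22.

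RNA was measured in Meg-01, an established human megakaryoblastic leukemia cell line, in 2 clones with a stable GATA1 shRNA delivered by lentivirus, GATA1 5-13 and GATA1 4-14, and in GATA1 Neg, the uncloned control line, in which Meg-01 cells carry a non-targeting shRNA from the same kind of virus. The cells had no drug treatment in the labels. Each of the 4 two-colour Agilent arrays carried 1 clone against GATA1 Neg, with the knockdown RNA in Alexa647 on the first array of a clone and in Alexa555 on the second. Each knockdown line is 1 clone grown from a single colony while the control is a pool, so that a difference between a clone and the pool and an effect of the shRNA cannot be told apart. All values are log2 ratios of the clone over GATA1 Neg, a difference and not a level, with 1 value per clone as the mean of its arrays.

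The erythroid and megakaryocytic factor GATA1, the gene that the shRNA targets, had log2 ratios that stood at -0.21 and -0.34 on the first and second array of GATA1 5-13 and at -0.43 and -0.58 for GATA1 4-14, and its adjusted p of 0.605 by limma did not pass the test. Between 61.6% and 66.4% of the spots of an array were well above background in the knockdown RNA. Of the megakaryocyte markers, the probes of ITGA2B, the integrin chain of platelets, were well above background on every array, whereas those of PF4 and VWF were not on any, and all 7 erythroid markers had a measured probe. The 5 measured megakaryocyte markers had gene medians of -0.12 in GATA1 5-13 and -0.16 in GATA1 4-14. GP1BA, by 1 measured probe, stood at -1.68 and -0.16, ITGA2B at -0.40 and -0.18, and GP9 at -0.12 and -0.11. ITGB3, at -0.12 and 0.21, and TUBB1, at 0.24 and -0.21, had opposite signs in the clones. For the 7 erythroid markers the medians were 0.10 and -0.23, with ALAS2 at 0.68 and -0.41, HBB at 0.17 and -0.47, and EPOR at -0.28 and -0.31. None of these passed after adjustment, and their part in the values of the members was not tested.

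Promoter sequences were read from RefSeq on GRCh38.p14 for the 7 members that had an entry, GSTP1, GSTM1, GSTM2, GSTM3, GSTM4, MGST1 and MGST3, with 9 entries in all. Each entry, from 250 bases before to 50 after the start site, was searched on both strands for GATA motifs (AGATAA or its variant AGATAG, and likewise TGATAA or its variant TGATAG) and for the core of the antioxidant response element, TGACNNNGC, which NRF2 binds. The 250 bases before the start site are shown for GSTP1, the member with the largest log2 ratio, and for GSTM3, the mu gene with a GATA motif. Capitals mark the antioxidant response core in GSTP1 (chr11:67583562-67583811, plus strand) and the GATA motif in GSTM3 (chr1:109741039-109741288, minus strand).
GSTP1: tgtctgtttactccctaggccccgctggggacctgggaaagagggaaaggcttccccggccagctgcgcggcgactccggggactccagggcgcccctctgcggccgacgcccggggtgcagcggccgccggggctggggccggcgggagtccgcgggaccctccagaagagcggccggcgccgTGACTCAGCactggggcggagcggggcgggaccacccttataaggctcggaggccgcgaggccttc
GSTM3: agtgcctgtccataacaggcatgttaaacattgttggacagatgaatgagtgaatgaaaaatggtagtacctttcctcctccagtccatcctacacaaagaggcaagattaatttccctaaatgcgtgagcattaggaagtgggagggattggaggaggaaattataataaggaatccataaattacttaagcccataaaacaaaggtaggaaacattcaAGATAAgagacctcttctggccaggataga

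The GSTP1 stretch was rich in G and C, at 74.8% of its bases, and held the core TGACTCAGC with its first base at position -66 from the start site, in letters that also spell the AP-1 motif, while that of GSTM3 held 40.0% and had AGATAA at position -30. In GSTM1 the core was found as TGACTTCGC at position -165. Of the 3 entries of MGST1, 1 held AGATAG at -183 and at -120 and the core as TGACAAAGC at position 31, and the remaining entries, those of GSTM2, GSTM4 and MGST3 included, had no match to these letters. Among all 35116 promoters in the table, each of 300 bases, 25.0% held a GATA motif and 13.3% the antioxidant response core. A match of letters is a description of the window and not a site of binding.

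Of the 16 member probes, 13 probes of 8 genes were well above background in both RNAs on all 4 arrays. The probe of GSTM2 and both probes of GSTT1 were not well above background in either RNA on any array, and no fold is given for them. After Benjamini-Hochberg adjustment over all probes, limma on the 2 clones called 0 member probes lower and 0 higher, against 0.0% of the 40974 probes in each direction. At an unadjusted p of 0.005 it called 0 members as well, against 0.574% of all probes lower and 0.327% higher. At an unadjusted p of 0.05, 4 member probes were lower and 0 higher, against 4.04% and 3.38% of all probes, and these 4 were the probe of MGST2 and the 3 probes of GSTM4, which share a gene and are not independent. As GATA1 Neg was on every array, the ratios of the clones share their control, and the spread of that control was not measured.

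**Figure D1:**
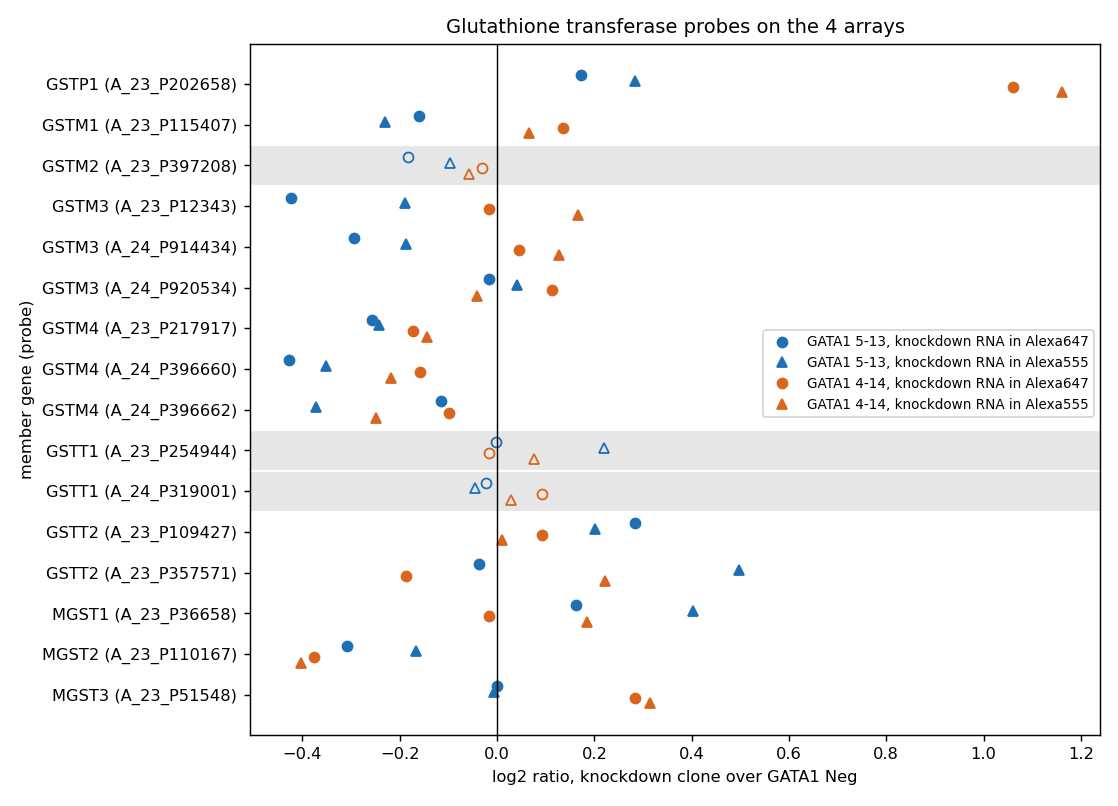
Log2 ratio of the clone over GATA1 Neg (horizontal axis) for each of the 16 member probes (vertical axis) on the 4 arrays, blue for GATA1 5-13 and orange for GATA1 4-14, circles with the knockdown RNA in Alexa647 and triangles in Alexa555. Open symbols on grey mark the 3 probes not well above background, and the GSTP1 probe on the arrays of GATA1 4-14 stands alone to the right, at 1.06 and 1.16.

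GSTP1, the pi class enzyme and the member most often followed in tumours, was higher in both clones, by 2.16-fold in GATA1 4-14 and by 1.17-fold in GATA1 5-13. Its probe (A_23_P202658, chromosome 11 from 67110626 to 67110685 of hg18) gave 0.17 and 0.28 for GATA1 5-13 on its first and second array, and 1.06 and 1.16 for GATA1 4-14. The arrays of a clone thus lay 0.11 and 0.10 apart, while the clones lay 0.88 apart, which has no test with 1 value per clone. The mean of the clones was 0.67 ± 0.62 (SD, n = 2 clones), higher on 4 of 4 arrays, and its adjusted p by limma was 0.684, which did not pass the test. Without GATA1 4-14 the value was 0.23, and without GATA1 5-13 it was 1.11.

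The array carries 10 spots of the GSTP1 probe, which show how well 1 array measured it. On the first array of GATA1 5-13, 9 spots without an outlier mark ran from 0.11 to 0.22, and on the second the 10 spots ran from 0.25 to 0.33. On the arrays of GATA1 4-14 they ran from 1.00 to 1.10 and from 1.10 to 1.20. The SD over the spots of an array was between 0.024 and 0.038, so that spots of different clones did not overlap, but spots of an array share its RNA and labelling and are not replicates.

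**Figure D2:**
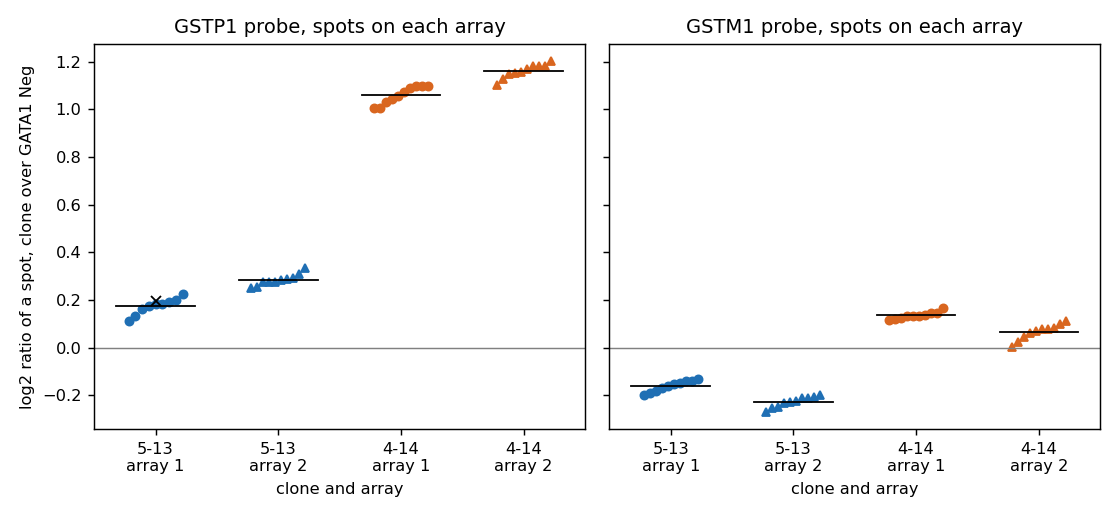
Log2 ratio of every spot of the GSTP1 probe (left) and the GSTM1 probe (right) on the 4 arrays, drawn in order of size within an array, with the mean of the spots used as a black line and the spot left out for its outlier mark as a cross. GSTP1 spots of GATA1 4-14 sit at 1.00 and above and those of GATA1 5-13 at 0.33 and below, and GSTM1 spots lie below 0 in GATA1 5-13 and above 0 in GATA1 4-14.

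Past 1.5-fold on both arrays of a clone, GSTP1 was the single member probe in GATA1 4-14, where 0.832% of all probes were as far up, and 0 member probes were past it downwards, against 0.696%. In GATA1 5-13, 0 member probes passed it in either direction, against 1.39% of all probes upwards and 2.01% downwards. Among the 23804 probes well above background in both RNAs on all arrays, 73 (0.307%) had a log2 ratio at or above that of GSTP1 in GATA1 4-14, and 15.5% did in GATA1 5-13.

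For the 15 other genes measured within 250 kb on either side of the GSTP1 probe, the log2 ratios in GATA1 4-14 ran from -0.76 to 0.17 with a median of 0.04, and in GATA1 5-13 from -1.28 to 0.24 with a median of -0.02. All of them were below GSTP1 in GATA1 4-14, whereas POLD4, at 0.24, stood slightly above it in GATA1 5-13. Over the 896 measured genes of chromosome 11 the median was 0.01 in GATA1 5-13 and -0.01 in GATA1 4-14. The 5 probes whose 4 log2 ratios lay nearest to those of GSTP1, by Euclidean distance, were those of CLMN (0.167), CCNA1 (0.200), SEPT10 (0.207), CSTA (0.243) and LRP11 (0.260). CCNA1, a cyclin of germ cells and myeloid cells, stood at 0.12 in GATA1 5-13 and at 1.19 in GATA1 4-14, and CSTA, an inhibitor of cysteine proteases, had 0.18 and 1.01.

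**Figure D3:**
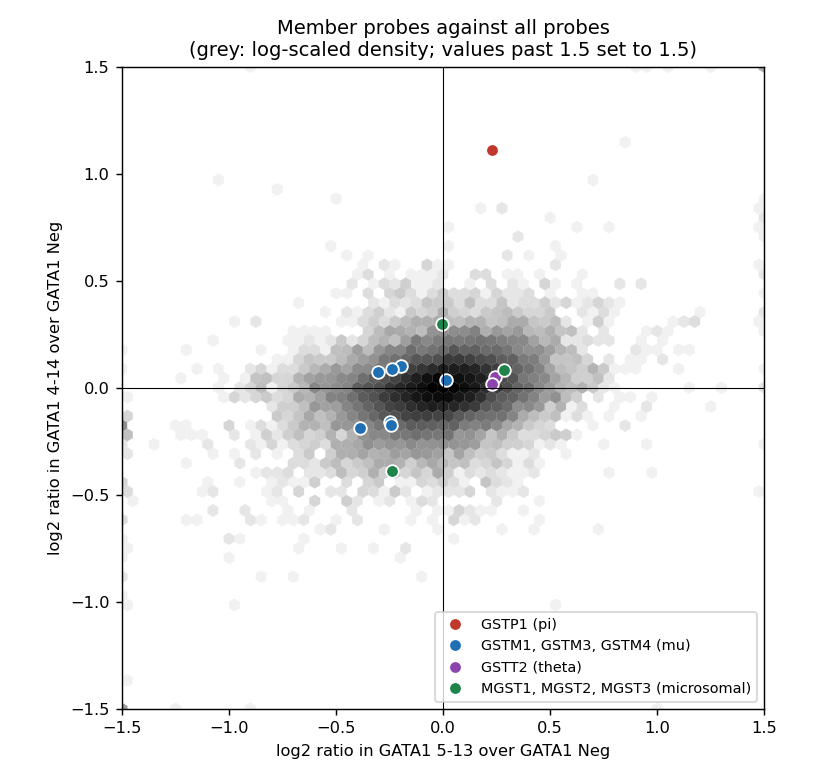
Log2 ratio in GATA1 5-13 (horizontal axis) against that in GATA1 4-14 (vertical axis), with the 13 measured member probes as coloured points over the density of the 23804 measured probes in grey, values past 1.5 being set to 1.5. GSTP1 stands at 0.23 and 1.11, and the other members lie between -0.39 and 0.30 in both clones.

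The mu class genes had negative log2 ratios in GATA1 5-13, the dimmest probe of GSTM3 excepted, and were split in GATA1 4-14. GSTM4 was below GATA1 Neg in both clones, whereas GSTM1 and the brighter probes of GSTM3 were below it in GATA1 5-13 and had means slightly above it in GATA1 4-14. None of them passed the test after adjustment.

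The 3 probes of GSTM4 lie on chromosome 1 of hg18 between 110001938 and 110003209. Probe A_24_P396660 had log2 ratios of -0.43 and -0.35 in GATA1 5-13 and of -0.16 and -0.22 in GATA1 4-14. Probe A_23_P217917 had -0.26 and -0.24, then -0.17 and -0.14, and probe A_24_P396662 had -0.12 and -0.37, then -0.10 and -0.25. All of them were lower on 4 of 4 arrays. Their means over the clones were -0.29 ± 0.14, -0.20 ± 0.06 and -0.21 ± 0.05 (SD, n = 2 clones), with adjusted p-values of 0.651, 0.663 and 0.651 by limma. The unadjusted p-values were 0.033, 0.040 and 0.034 by limma. These probes were dim, with signals between 1.28 and 2.29 times the local background, where the added offset makes a fold smaller than it was. The array lists accessions of GSTM1 for A_23_P217917 too, so that its RNA cannot be told apart between the genes, while the other probes list GSTM4 alone.

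GSTM1, a mu gene that many people lack, was measured by probe A_23_P115407 (chromosome 1 from 110033195 to 110033254 of hg18), which the array also assigns to GSTM4. Its log2 ratios were -0.16 and -0.23 in GATA1 5-13 and 0.14 and 0.07 in GATA1 4-14. The 10 spots of an array had an SD between 0.015 and 0.033, and those of GATA1 5-13 ran from -0.27 to -0.13 while those of GATA1 4-14 ran from 0.00 to 0.17. The mean of the clones was -0.05 ± 0.21 (SD, n = 2 clones), with an adjusted p of 0.930 by limma. Probes that list GSTM4 alone stood at -0.19 and -0.17 in GATA1 4-14, on the other side of 0 from the GSTM1 probe.

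GSTM3, a mu enzyme best known from testis and brain, has 3 probes between 110078633 and 110081803 on the same chromosome. Probe A_23_P12343 had log2 ratios of -0.42 and -0.19 in GATA1 5-13 and of -0.02 and 0.17 in GATA1 4-14. Probe A_24_P914434 had -0.29 and -0.19, then 0.04 and 0.13. The dim probe A_24_P920534, at no more than 1.36 times the background, had -0.02 and 0.04, then 0.11 and -0.04, and thus did not show the lower value of GATA1 5-13 that the brighter probes had. Adjusted p-values of the 3 probes by limma were between 0.842 and 0.936.

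In GATA1 5-13 the genes around the GSTM cluster were below GATA1 Neg as well. The 6 other genes measured within 250 kb of the GSTM probes, PSMA5, ATXN7L2, CYB561D1, GNAI3, GNAT2 and AMPD2, stood around a median of -0.32 in GATA1 5-13, from -0.55 for GNAI3 to -0.03 for CYB561D1, and a median of -0.05 in GATA1 4-14. The 936 measured genes of the short arm of chromosome 1 had medians of -0.31 and -0.00, and the 781 of the long arm -0.02 and -0.04. By gene, GSTM4 stood at -0.29, GSTM1 at -0.20 and GSTM3 at -0.18 in GATA1 5-13, none of them below the median of the arm. In GATA1 4-14, where the arm was near 0, they stood at -0.17, 0.10 and 0.07. The part of the whole arm in the values of the mu genes was not tested.

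**Figure D4:**
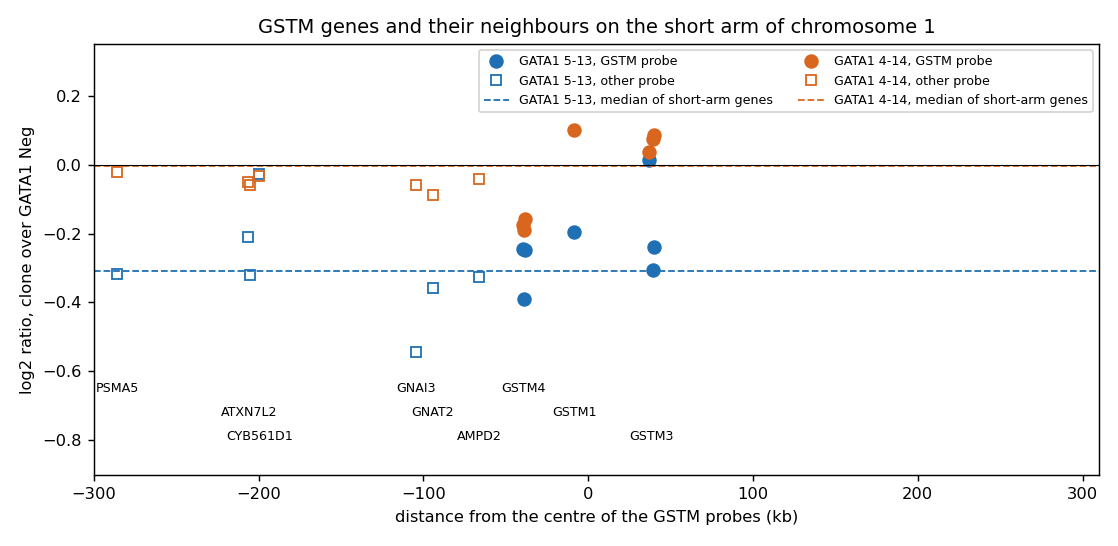
Log2 ratio of the measured probes (vertical axis) by distance in kb from the centre of the GSTM probes (horizontal axis), blue for GATA1 5-13 and orange for GATA1 4-14, filled circles for GSTM genes and open squares for their neighbours, with dashed lines at the medians of the 936 short-arm genes. In GATA1 5-13 the neighbours scatter around the short-arm median of -0.31. The GSTM probes lie at or above that median, except a GSTM4 probe at -0.39. In GATA1 4-14 the GSTM4 probes lie below 0 and those of GSTM1 and GSTM3 above it.

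Of the theta class, GSTT2 was measured by a pair of probes on chromosome 22 of hg18, and the median of the 398 measured genes of that chromosome was 0.02 in GATA1 5-13 and 0.00 in GATA1 4-14. Probe A_23_P109427 (22655921 to 22655980) had log2 ratios of 0.28 and 0.20 in GATA1 5-13 and of 0.09 and 0.01 in GATA1 4-14, higher on 4 of 4 arrays, with a mean of 0.15 ± 0.13 (SD, n = 2 clones) and an adjusted p of 0.723 by limma. Probe A_23_P357571 (22656024 to 22656083) gave -0.04 and 0.50, then -0.19 and 0.22. Its value was below 0 on both arrays with the knockdown RNA in Alexa647 and above 0 on both with it in Alexa555, and the arrays of a clone lay 0.54 and 0.41 apart, more than its mean of 0.12. The clone means of the probes were nonetheless close, at 0.24 and 0.23 in GATA1 5-13 and at 0.05 and 0.02 in GATA1 4-14. GSTT2 has a near-identical copy, GSTT2B, and the RNA of the genes cannot be told apart.

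The microsomal enzymes went separate ways. MGST2, which conjugates glutathione to the leukotriene precursor LTA4, was lower on 4 of 4 arrays, MGST1 was higher on 3 of 4, and MGST3 was higher in GATA1 4-14 with values near 0 in GATA1 5-13.

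MGST2 (A_23_P110167, chromosome 4 from 140844706 to 140844765 of hg18) gave -0.31 and -0.17 in GATA1 5-13 and -0.38 and -0.40 in GATA1 4-14, or 0.85 and 0.76 times the level of GATA1 Neg by the clone means. The mean was -0.31 ± 0.11 (SD, n = 2 clones), with an adjusted p of 0.606 by limma, the lowest among the members. The unadjusted p by limma was 0.019. Over the 677 measured genes of chromosome 4 the medians were 0.01 and -0.00. The value of MGST2 came to an adjusted p of 0.047 with the 4 arrays taken as 4 values and of 0.035 with an error-weighted mean of the arrays, both of which count the arrays of a clone as separate measurements.

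MGST1, an abundant membrane enzyme that also reduces lipid peroxides, had log2 ratios of 0.16 and 0.40 in GATA1 5-13 and of -0.02 and 0.18 in GATA1 4-14 (A_23_P36658, chromosome 12 from 16408174 to 16408233). In each clone the array with the knockdown RNA in Alexa555 gave the higher value, by 0.24 and 0.20. The mean was 0.18 ± 0.14 (SD, n = 2 clones), with an adjusted p of 0.699 by limma. MGST3, which has glutathione-dependent peroxidase activity, had log2 ratios of -0.00 and -0.01 in GATA1 5-13 and of 0.28 and 0.31 in GATA1 4-14 (A_23_P51548, long arm of chromosome 1 from 163891312 to 163891371). The arrays of a clone differed by 0.01 and 0.03 and the clones by 0.30, and the mean of 0.15 ± 0.21 (SD, n = 2 clones) had an adjusted p of 0.766 by limma.

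With the probes of a gene averaged, the 8 measured members had medians on the log2 scale of -0.09 for GATA1 5-13 and 0.07 for GATA1 4-14, against -0.01 and 0.00 over all 17299 measured genes. By probe the medians were -0.20 and 0.05, as 7 of the 13 measured member probes belong to mu genes. The genes were not all on the same side of GATA1 Neg. In GATA1 5-13 GSTP1, GSTT2 and MGST1 stood between 0.23 and 0.28 while GSTM1, GSTM3, GSTM4 and MGST2 stood between -0.29 and -0.18. In GATA1 4-14 the order was another, with GSTP1 at the top, MGST3 next at 0.30, and MGST2 at the bottom at -0.39. Neighbours in that order, such as GSTM1 at 0.10 and MGST1 at 0.08, lay closer together than the arrays of a clone did for MGST1.

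The list of glutathione transferases outside the members, which also holds the leukotriene pathway protein ALOX5AP, had 9 measured genes. Their medians were -0.06 for GATA1 5-13 and 0.04 for GATA1 4-14, and 0 of them were called at an unadjusted p of 0.005. LTC4S, the leukotriene C4 synthase that acts on the same substrate as MGST2, was lower on 4 of 4 arrays with a mean of -0.39 ± 0.11 (SD, n = 2 clones) and an adjusted p of 0.575 by limma. Its arrays gave -0.26 and -0.68 in GATA1 5-13 and -0.15 and -0.47 in GATA1 4-14, lower in each clone with the knockdown RNA in Alexa555. The LTC4S probe was dim, at 1.43 to 2.41 times the local background. ALOX5AP, the membrane protein that hands arachidonic acid to the lipoxygenase of the same pathway, was higher on 4 of 4 arrays with its measured probe, at 0.24 in GATA1 5-13 and 0.42 in GATA1 4-14, with an adjusted p of 0.612 by limma. That probe was dim too, at 1.18 to 1.54 times the background. GSTA4, an alpha class enzyme for lipid aldehydes, stood at 0.11 in GATA1 5-13 and at 0.56 in GATA1 4-14. GSTO1, an omega class enzyme that reduces dehydroascorbate, had 0.39 and 0.36 by its probes in GATA1 5-13 and -0.30 and -0.26 in GATA1 4-14. GSTK1 of the peroxisome stood at -0.21 and -0.08, GSTZ1, the maleylacetoacetate isomerase, at -0.06 and 0.27, and neither probe of GSTM5 was measured. PGDS, the prostaglandin D synthase of blood cells and itself a glutathione transferase, named here after its values were seen, had log2 ratios of -0.30 and -0.35 in GATA1 5-13 and of 1.36 and 1.24 in GATA1 4-14.

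The genes that make and recycle glutathione had 20 measured genes with medians of -0.09 and -0.02, and 0 passed an unadjusted p of 0.005. GCLC, the catalytic chain of the enzyme for the first step of synthesis, stood at 0.05 in GATA1 5-13 and -0.06 in GATA1 4-14, and its modifier chain GCLM, itself on the short arm of chromosome 1, at -0.40 and -0.02. GSS, which completes the tripeptide, stood at 0.02 and 0.11. GSR, which restores oxidized glutathione, had log2 ratios of -0.57 and -0.52 by its probes in GATA1 5-13 and of 0.02 and 0.17 in GATA1 4-14.

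Among the 4 measured genes of the peroxidase list the medians were -0.15 and -0.03. GPX7, a peroxidase of the endoplasmic reticulum, was the single gene of all the lists past the unadjusted p of 0.005, lower with both probes, at 0.0014 and 0.0016 by limma. The member list and the further glutathione lists held 8, 9, 20, 4, 7 and 20 measured genes. Of all 17299 measured genes, 247 (1.43%) had a probe past that p. The GPX7 probes gave -0.72 and -0.73 in GATA1 5-13 and -0.62 and -0.62 in GATA1 4-14, with an adjusted p of 0.451 by limma. GPX7 too lies on the short arm of chromosome 1, whose measured genes had medians of -0.31 in GATA1 5-13 and -0.00 in GATA1 4-14. The part of the arm in the values of GPX7 was not tested. GPX1, the main cytosolic peroxidase, stood at -0.03 and 0.01, and GPX4, which acts on lipid peroxides, at -0.28 and -0.07.

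The pumps that export conjugates had 7 measured genes with medians of 0.01 and 0.02, and ABCC1, a pump for glutathione conjugates, stood at 0.04 in GATA1 5-13 and 0.14 in GATA1 4-14. Of the NRF2 axis, 20 genes were measured, with medians of 0.07 and 0.02. The factor itself, NFE2L2, had 0.44 and 0.17 with probe A_23_P5761 and -0.18 and 0.23 with probe A_24_P936444, so that its probes disagreed in GATA1 5-13. Its inhibitor KEAP1 stood at 0.12 and -0.05. Of the enzymes that NRF2 is known to raise, NQO1 stood at -0.10 and -0.13 and HMOX1 at 0.10 and 0.13. In each of these lists 0 genes passed after adjustment, and over all 17299 measured genes the medians were -0.01 and 0.00.

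**Figure D5:**
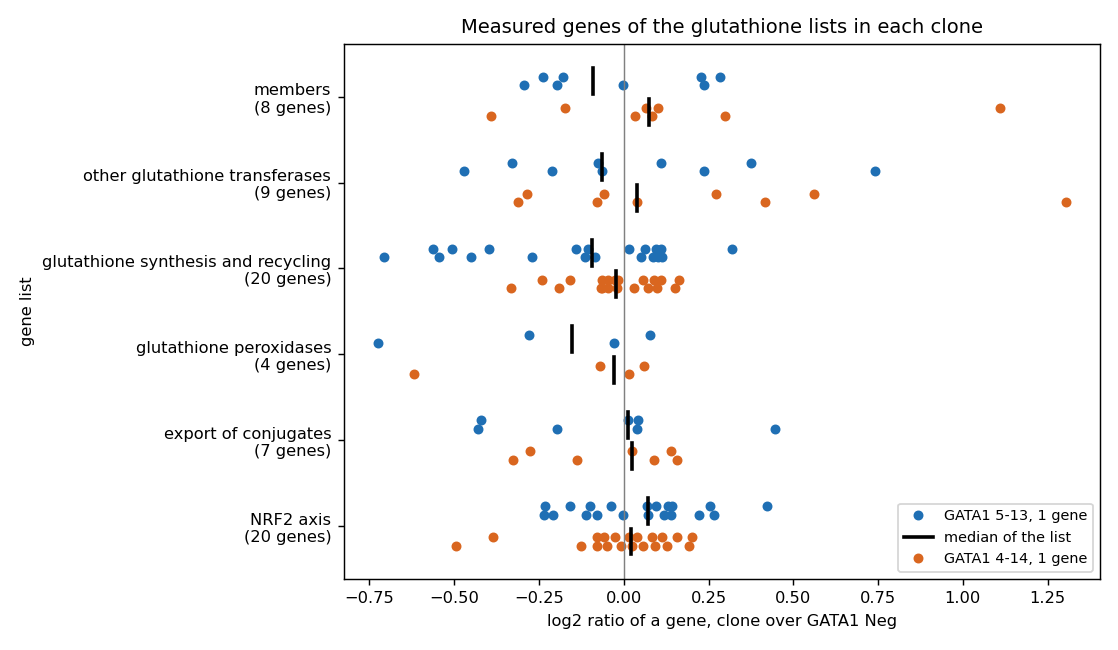
Log2 ratio of each measured gene over GATA1 Neg (horizontal axis) in the member list and 5 further glutathione lists (vertical axis), blue for GATA1 5-13 and orange for GATA1 4-14, with black bars at the median of a list in a clone. GSTP1 at 1.11 and PGDS at 1.30, both in GATA1 4-14, are the points farthest to the right, and CTH at -0.71, GPX7 at -0.72 and -0.62 those farthest to the left.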

How the data were processed

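The members and gene lists were chosen with earlier results of these data known. For each array the authors deposited the mean intensity of each spot and its median local background in both channels, as read by Agilent Feature Extraction 9.5.3.1 on a design with hg18 positions, and that program's dye-normalized log10 ratio with its error. The deposited series-wide table held these log10 ratios as knockdown over control. In limma 3.58.1 (R 4.3.3), intensities were corrected with normexp (offset 50) and normalized by loess within each array. Control spots and outlier-marked spots were dropped, and spots of a probe, then arrays of a clone, were averaged. The mean of the 2 clones was tested against 0 by a two-sided test over 40974 probes, adjusted by the Benjamini-Hochberg method. Calls were made at an adjusted p of 0.05 and, beside it, at an unadjusted 0.005, the cutoff that the study used. The study applied it to p-values of an array error model and its replicate arrays, not to limma on 2 clones. Counts at 0.005 here are thus not the calls of the study. A clone alone was called past 1.5-fold on both arrays, without a test. The script was tested on simulated data.

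"Measured" means well above background in both RNAs on all 4 arrays. In the lists, probes of a gene were averaged. The genes named were all members, GATA1, a set choice from the lists, any list gene at an unadjusted p of 0.005, the genes within 250 kb of the GSTM probes, and the 5 probes nearest to GSTP1. Arrays with the same replicate number share their dye orientation, and across probes they correlated with an r of 0.387 and 0.409 between the clones, against 0.171 and 0.216 otherwise, and dye orientation and a shared culture or day cannot be told apart. No separate cultures are named, so p-values rest on the spread between these clones and not on one between cultures. By limma the spread of a probe is drawn towards that of all probes. The extraction text of the labels names clones of CMK, but every other label gives Meg-01, which is used here. Alternatives were another background correction, normalization or moderation, filters, the arrays as separate values, and each array and clone left out. The number of arrays limits the precision.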

Additional observations from a re-analysis of the deposited data

Results flagged for a closer look

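For the following probes every array of GATA1 5-13 lay on the other side of 0 from every array of GATA1 4-14. With 1 value per clone the difference between the clones was not tested, and both clones share the GATA1 Neg RNA. Among the members, the log2 ratio in GATA1 5-13 minus that in GATA1 4-14 was -0.30 for the GSTM1 probe A_23_P115407, -0.33 for the GSTM3 probe A_24_P914434 and -0.30 for the MGST3 probe A_23_P51548, whose arrays of GATA1 5-13 were within 0.01 of 0. By gene these are 3 of the 8 measured members, against 19.1% of all 17299 measured genes. Among the other genes named from the lists it was -1.63 for PGDS, 0.80 for GSTO2, 0.70 and 0.62 for the probes A_23_P1254 and A_24_P304051 of GSTO1, -0.70 for the GSR probe A_32_P31618, -0.41 for the NFE2L2 probe A_24_P936444, 0.17 for KEAP1 and -0.13 for the GSTCD probe A_23_P110288. GSTO2, an omega class enzyme, had log2 ratios of 0.86 and 0.62 in GATA1 5-13 and of -0.07 and -0.04 in GATA1 4-14. GSTO2, PGDS and GSTCD, a gene with a glutathione transferase domain, were named after their values were seen. No group had 4 arrays, so that single arrays were not tested for lying apart.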

How the results depend on the processing

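The count of member probes called at an adjusted p of 0.05 was 0, in a fit that called 0 of all 40974 probes in each direction. The member count stayed 0 with an intensity trend, with probes of a gene averaged, with dim probes filtered out and with outlier spots kept. It also stayed 0 with no background correction, with median centring or Aquantile, and with the series-wide values or the Feature Extraction log ratios. With each array left out the member count was 0 as well (range 0 to 0, in either direction). An error-weighted mean gave 1 probe higher (GSTP1, adjusted p of 5.52e-08) and 2 lower (MGST2 and the GSTM4 probe A_24_P396660). With the 4 arrays as 4 values and no replicate block 1 was lower (MGST2). Both settings count the arrays of a clone as separate measurements. The adjusted p ran from 0.0351 to 0.751 over the alternatives for MGST2 and from 5.52e-08 to 0.781 for GSTP1. At the unadjusted p of 0.005 the count went from 0 to 3 with the error-weighted mean, to 3 with no replicate block and to 1 with the replicate block, which pairs arrays of the same number. After adjustment the replicate block called 0. The share of all probes called in these alternatives was not counted, so the member counts there have no share beside them.

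Some log2 ratios changed sign. With a clone or an array left out, GSTM1 ranged from -0.1954 to 0.1001, the GSTM3 probes A_23_P12343 from -0.3063 to 0.0748, A_24_P914434 from -0.2398 to 0.0861 and A_24_P920534 from -0.0146 to 0.0621, the GSTT2 probe A_23_P357571 from -0.0102 to 0.2575, and MGST3 from -0.0036 to 0.2989. For GSTM1, MGST3 and the 2 brighter GSTM3 probes the extremes came without a clone. The dim A_24_P920534 also stood at -0.0204 with the Feature Extraction log ratios and with the series-wide values, and at -0.0036 with the error-weighted mean, and the cause was not tested. GSTP1 passed 1.5-fold in GATA1 4-14 in the 6 alternatives run for that count (no background correction, median centring, Aquantile, outlier spots kept, and both sets of deposited log ratios). The dim GSTM4 probes moved by over 1.5 times without background correction, A_24_P396660 from -0.29 to -0.13, A_23_P217917 from -0.20 to -0.08 and A_24_P396662 from -0.21 to -0.11, and A_23_P217917 also to -0.36 with the Feature Extraction log ratios and the error-weighted mean.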
